A study of Rattus norvegicus with 8 samples.

Results

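The resting Achilles tendon of the rat was described from the 4 caged control rats (NC), which are 4 of the 8 samples in the data. The members were the 4 libraries labelled as control, chosen by label and not by a measured value. The animals of the treadmill study were male Sprague-Dawley rats 8 to 10 weeks old, labelled as wild type (WT). The NC rats rested in their cages and were killed together with the running rats, which were killed 12 hours after 1 hour on a treadmill and were not used here. The tendon of the right leg was kept in a stabilizing solution, pulverized whole, and sequenced as stranded polyadenylate mRNA, with 1 library per rat. With a single group, the values below compare genes within the resting tendon and rats with each other, and no test between groups was made.

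A tendon carries muscle force to bone through parallel fibrils of type I collagen. Tenocytes, the fibroblasts between the fibrils, make the collagen together with the small proteoglycans and glycoproteins that set the width and spacing of fibrils, and with the enzymes that process, crosslink, and degrade them. The tendon joins muscle at one end and bone, through fibrocartilage, at the other, and its sheath carries vessels, nerves, and fat, so that the dissected tissue can hold RNA of all of these.

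The libraries held 12951397, 8385779, 12724796, and 11008949 counted reads in NC replicates 1 to 4, and 17466 to 18173 genes had a read in a rat. Levels are given as the deposited FPKM (fragments per kilobase of gene length, scaled by 1 factor per rat, which was not equal to its total of counted reads), the unit in which different genes can be compared, and ranks are those of the median FPKM over the rats. Where 4 values of a gene are given, they are those of NC replicates 1 to 4 in this order. Members named below that are not among the 4 leading ones of their list were mostly picked after their values had been seen. In bulk tissue, fewer cells of a type and less RNA per cell cannot be told apart. Single rats held the highest or lowest values of some gene groups. NC replicate 3 was highest in bone genes, and NC replicate 4 was lowest in most fast muscle genes. NC replicate 2, the shallowest library, was lowest in macrophage genes and highest in a group of short gene entries. The summed bone list met the outlier criterion used in a later section, and the summed fast muscle and macrophage lists did not. Over the 9151 genes with a mean of at least 5 FPKM, the rank order of genes in any 2 rats had a Spearman coefficient of 0.936 to 0.953, given as a description because all genes of a rat share 1 library.

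Of 32883 gene entries, 13261 had a median of at least 1 FPKM, and 12359 reached that level in every rat. Among the 22237 protein-coding entries encoded in the nucleus, 12333 reached 1 FPKM, 6077 reached 10 FPKM, 733 reached 100 FPKM, and 63 reached 1000 FPKM. The transcriptome was concentrated in few of them. The leading gene held 2.43 ± 0.226% of the summed FPKM of these genes (mean ± SD, n = 4), the leading 10 held 10.5 ± 0.445%, the leading 100 held 33.3 ± 1.38%, and the leading 1000 held 67.4 ± 1.29%.

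**Figure D1:**
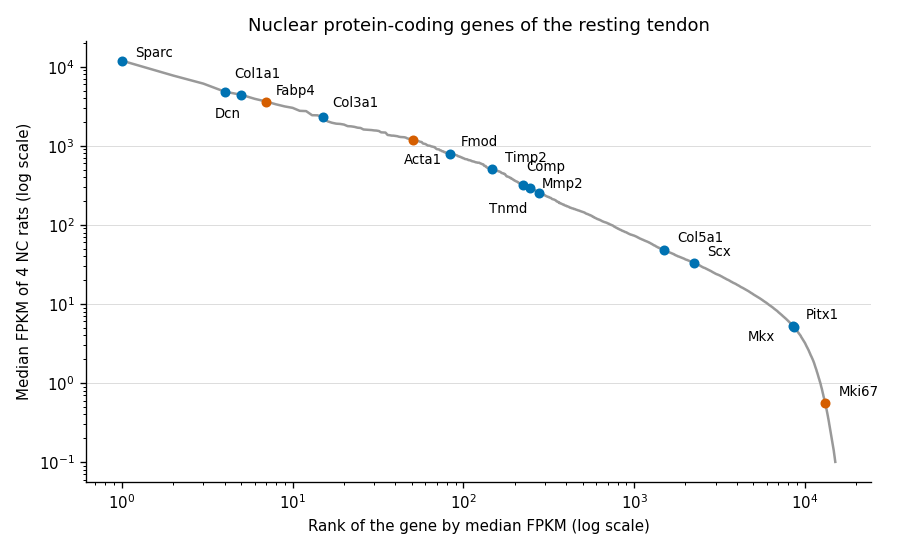
Median FPKM of the nuclear protein-coding genes over 4 NC rats (vertical axis, log scale) against their rank (horizontal axis, log scale). Points mark named genes, in blue tendon matrix, tendon and limb genes and in orange genes of muscle, fat, and dividing cells. Sparc stands at rank 1, Col1a1 and Dcn at ranks 4 and 5, Fmod at rank 84, and the tendon transcription factor gene Scx at rank 2252.

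The first nuclear gene was Sparc (ENSRNOG00000012840), which encodes osteonectin, a secreted protein that binds collagen and calcium. Its FPKM was 12849, 10949, 13062, and 11014 in NC replicates 1 to 4, and it was the first of the nuclear protein-coding genes in every rat. Cst3, the gene of the secreted protease inhibitor cystatin C, followed at 6242, 7981, 8773, and 7467 FPKM. The values of these neighbours did not overlap, whereas those of every later pair of neighbours among the leading 30 did. Tmsb4x, which encodes the actin-binding peptide thymosin beta 4, was at 7729, 5849, 5156, and 6375 FPKM.

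Col1a1 (ENSRNOG00000003897), the alpha 1 chain of type I collagen, came after it at rank 4, with 4815, 4860.3, 5230.0, and 3365 FPKM. Dcn (ENSRNOG00000004554), which encodes decorin, the main small proteoglycan on collagen fibrils, held rank 5, with 4298, 4537, 5688, and 3706 FPKM. Their order was that of the medians in 2 of 4 rats, so the 2 genes did not differ beyond the spread between rats. Counted as reads, without the division by gene length, Col1a1 came first and Sparc second, since the Col1a1 gene model spans 5825 bases and that of Sparc 2063.

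Of the leading 100 nuclear protein-coding genes, 37 encoded cytosolic ribosomal proteins and 7 belonged to the matrix lists, namely Sparc, Col1a1, Dcn, Col3a1, Mgp, Col1a2, and Fmod. Other tissues were present in the same range. Skeletal muscle gave Mylpf, Acta1, and Tnnc2, fat gave Fabp4, Cfd, and Adipoq, red blood cells gave Hbb and 2 entries named Hba-a2, and macrophages gave Lyz2. The remaining 46 included housekeeping genes such as Eef1a1 and Fth1, cytoskeletal and calcium-binding genes such as Gsn, Vim, and S100a6, and 13 entries named only by a clone or locus. Car3, the carbonic anhydrase of muscle and fat cells, was among the leading 30 with 2614, 2407, 2451, and 1415 FPKM, lowest in NC replicate 4.

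The 95 entries of cytosolic ribosomal proteins together held 9.34 ± 0.858% of all FPKM (mean ± SD, n = 4) and 4.83% of reads. By FPKM, 74 of them were highest in NC replicate 1 and 76 lowest in NC replicate 3. The lowest rat depends on the scaling, since as a share of all FPKM their sum was lowest in NC replicate 2, at 8.39%, against 8.99% in NC replicate 3. The 13 protein genes of the mitochondrial genome, which encode subunits of the respiratory chain and ATP synthase, held 16.8 ± 2.62% of all FPKM, and Mt-atp6 led them at 28861, 31591, 17634, and 19502 FPKM. NC replicate 2 was the highest rat in 11 of the 13. Ribosomal protein genes have processed copies in the genome, and how reads that match several places were counted is not stated, so single members of this family are uncertain.

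Promoters of the leading genes were searched for the letters of a TATA box (TATAAA), which many strongly expressed, tissue-specific genes carry, and for a start in C and T bases, a known feature of ribosomal protein genes. A few sequences are shown to let these features be seen. Promoters were taken from RefSeq on the build GRCr8, not the build of the reads, and were matched by symbol for 64 of the 99 different symbols among the leading 100 genes. The letters TATAAA on the gene strand, beginning 20 to 40 bases before the start, were in 1.37% of all 33469 promoters in that table. They were in 5 of the 64 matched leading genes (7.81%). By class, they were in 4 of the 13 matched skeletal muscle markers, in 1 of 3 erythroid markers, in 7 of 152 matrix genes, in 2 of 67 ribosomal protein genes, in 0 of 7 tenocyte markers, in 0 of 8 adipocyte markers, and in 0 of 5 endothelial markers. The 60 bases before the start follow for Acta1 (chr19:68784195-68784254, minus strand), Myh1 (chr10:52384852-52384911, plus strand), and Hba-a2 (chr10:15829139-15829198, minus strand), with TATAAA in capitals, and for Sparc (chr10:40038817-40038876, minus strand) and Cst3 (chr3:156793938-156793997, minus strand), the leading genes, in which these letters are not in this window.
Acta1: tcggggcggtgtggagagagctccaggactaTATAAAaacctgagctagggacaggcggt
Myh1: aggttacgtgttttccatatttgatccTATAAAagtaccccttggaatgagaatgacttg
Hba-a2: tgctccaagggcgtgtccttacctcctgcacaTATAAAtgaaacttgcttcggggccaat
Sparc: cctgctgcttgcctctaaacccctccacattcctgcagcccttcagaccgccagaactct
Cst3: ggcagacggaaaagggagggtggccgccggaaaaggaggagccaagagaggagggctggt

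The capitals begin 29, 33, and 28 bases before the start in Acta1, Myh1, and Hba-a2. Ribosomal protein genes had another feature, a start on a C followed by at least 4 bases that are each C or T. This was found in 21 of 67 matched members (31.3%) and in 2.63% of all promoters, on the gene strand. The 20 bases before and the first 10 bases of the gene are given for 3 members in the leading 30, Rps15 (chr7:10068106-10068135, minus strand), Rplp0 (chr12:46718381-46718410, minus strand), and Rpl35 (chr3:43165912-43165941, minus strand), with the run of C and T in capitals.
Rps15: gcagccgctgacaccgcttcCTTTTCCCag
Rplp0: ctggtgaccgcaccgcacttCTCTCgccag
Rpl35: ggccccgccccttcctctttCTCTCgaacc

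Rplp0 also holds TATAAA, beginning 31 bases before its start and so outside the bases printed. The 3 genes stood at 1866, 1806, 1536, and 1583 FPKM for Rps15, 2062, 1652, 1515, and 1446 FPKM for Rplp0, and 1722, 1576, 1401, and 1584 FPKM for Rpl35. A match of letters is a description and not a bound site, and its absence says only that these letters are not in the window shown.

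The highest value of the whole table belonged to none of these genes. A miRNA entry of 57 bases named AABR07063425.2 was at 34863, 75050.5, 19168, and 37785 FPKM, yet it took a median of 0.211% of the reads of a rat. It was 1 of 14 entries with names from a few genome clones and at least 100 FPKM, a group chosen after the values were seen, of 49 to 1092 bases, 7 of them annotated as miRNA and 7 as protein-coding. All 14 were highest in NC replicate 2 and all 14 were lowest in NC replicate 3. Together they held 6.83%, 15.2%, 4.63%, and 8.88% of FPKM in NC replicates 1 to 4, and 0.414% to 1.64% of reads. The libraries were made from polyadenylate mRNA, and reads on an entry of this length do not measure a mature miRNA. Because such entries weigh on a share of all FPKM, shares of the matrix classes are also given over nuclear protein-coding genes.

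The 14 matrix lists held 199 genes. Of these, 151 reached a median of 1 FPKM and 37 reached 100 FPKM, and their sum was 7.91 ± 0.910% of the FPKM of nuclear protein-coding genes (mean ± SD, n = 4). By reads, without the division by gene length, their share was 11.8% of all reads. The adhesive and matricellular glycoproteins held 3.53 ± 0.400%, the fibrillar collagens 1.61 ± 0.233%, the small leucine-rich proteoglycans 1.45 ± 0.263%, and the enzymes of collagen modification and crosslinking 0.475 ± 0.0542%.

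All 11 fibrillar collagen genes reached a median of 1 FPKM, and 3 of them held nearly all of the signal. Col3a1, the chain of type III collagen, which runs with type I in thin fibrils, was at 2757, 1319, 2342, and 2245 FPKM, and Col1a2, the alpha 2 chain of type I collagen, was at 1149, 734, 1081, and 844 FPKM. Both were lowest in NC replicate 2, which Col1a1 was not. Col1a1, Col1a2, and Col3a1 summed to 85.6 ± 1.53% of the FPKM of the 42 collagen genes (mean ± SD, n = 4).

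The ratio of Col1a1 to Col1a2, whose chains join in type I collagen, was 4.91 ± 1.20 (mean ± SD, n = 4), with the highest value, 6.63, in NC replicate 2. Col1a1 to Col3a1 gave 1.75, 3.69, 2.23, and 1.499, again highest in NC replicate 2. Without that rat, the ratio to Col3a1 lay between 1.499 and 2.23. Such ratios rest on the lengths of the gene models, 5825 bases for Col1a1, 4475 for Col1a2, and 4765 for Col3a1.

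The collagens that take part in starting fibrils, types V and XI, were far lower. Col5a2 was at 104, 76.2, 132, and 88.0 FPKM and Col5a1 at 49.0, 36.3, 72.7, and 47.1 FPKM, and their sum was 2.76 ± 0.586% of that of Col1a1 and Col1a2. Col11a2 and Col11a1 had medians of 33.9 and 32.2 FPKM. Col2a1, the collagen of cartilage, was at 2.38, 1.21, 130.2, and 1.29 FPKM, high in NC replicate 3 alone.

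Outside the fibrils, type VI collagen, which surrounds tendon cells with beaded filaments, was the most abundant. Col6a2 was at 293, 216, 344, and 236 FPKM and Col6a1 at 180.4, 152, 249, and 181 FPKM, both highest in NC replicate 3, while Col6a3, the other main chain, was not analysed here. Type IV collagen of basement membranes followed, with Col4a1 at 189, 188, 200.03, and 168 and Col4a2 at 126, 114, 138, and 111 FPKM, and the CV (SD as a percent of the mean) of Col4a1, 7.20%, was the lowest of all collagens of at least 10 FPKM. Of the collagens that sit on fibril surfaces, Col14a1 led at 50.7, 22.2, 52.1, and 60.2 FPKM, with NC replicate 2 below the other rats. Col12a1 had a median of 18.4 FPKM, and Col22a1, a collagen of the muscle-tendon junction, was at 1.41, 3.86, 4.58, and 5.62 FPKM.

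Among the small leucine-rich proteoglycans, which bind fibrils and limit their lateral growth, 12 of 16 entries reached 1 FPKM. Decorin exceeded its closest relative, biglycan (Bgn, 345, 327, 392, and 308 FPKM), by a ratio of 13.2 ± 1.17 (mean ± SD, n = 4). Fmod, which encodes fibromodulin, was at 778, 1055, 799.6, and 681 FPKM. Lum, its relative lumican, was at 104, 59.8, 198, and 139.9 FPKM, so that the ratio of Fmod to Lum ran from 4.04 in NC replicate 3 to 17.6 in NC replicate 2.

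Chondroadherin (Chad), a cell-binding member found in cartilage and tendon, was at 403, 1047, 780.0, and 443 FPKM, with NC replicates 2 and 3 above NC replicates 1 and 4. Keratocan (Kera) was at 350.4, 189.8, 341, and 226 FPKM and Prelp, which links collagen to basement membranes, at 222, 343, 285, and 206 FPKM. Of these, Kera was lowest and Prelp highest in NC replicate 2. Asporin (Aspn) and osteoglycin (Ogn) had medians of 17.2 and 15.5 FPKM, and osteomodulin (Omd) was listed at 0 in all 4 rats.

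The large proteoglycans were low by comparison, and Prg4, the gene of the lubricant lubricin, held most of their sum. Its FPKM was 497, 176, 385, and 981, lowest in NC replicate 2 and highest in NC replicate 4. Versican (Vcan), of loose matrix, was at 15.5, 11.1, 12.1, and 8.95 FPKM. Aggrecan (Acan), of cartilage, was at 5.50, 8.59, 18.4, and 4.94 FPKM, highest in NC replicate 3.

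The adhesive and matricellular list held 12 genes of at least 100 FPKM. After Sparc came Mgp, which encodes matrix Gla protein, an inhibitor of calcification, at 1764, 1391, 2046, and 2088 FPKM. The load-responsive gene Ccn2 was at 531, 412, 426, and 772 FPKM and fibronectin (Fn1) at 433, 179, 389, and 706 FPKM, both highest in NC replicate 4. Comp, which encodes a tendon and cartilage glycoprotein that binds collagen, was at 224, 483, 423, and 215 FPKM, and NC replicates 2 and 3 lay above the other rats, as they did for Chad. Thbs4, of the same family, was at 258, 217, 272, and 180.3 FPKM, and periostin (Postn) ranged from 105 to 341 FPKM.

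Of the 17 elastic fibre and microfibril entries, 15 reached 1 FPKM. Mfap5, a microfibril glycoprotein, was at 210.1, 149, 176, and 154 FPKM and elastin (Eln) at 134, 113, 139.7, and 133 FPKM. Fibrillin 1 (Fbn1) had a median of 63.0 FPKM. Of the 13 laminin and basement membrane entries, 11 reached 1 FPKM, led by Lamb2 at 86.9, 86.3, 95.7, and 108 and Nid1 at 64.0, 54.3, 60.3, and 62.7 FPKM, and Lama1 was listed at 0.

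Of the enzymes that make and join collagen, 26 of 27 entries reached 1 FPKM. Pcolce, the enhancer of the protease that trims procollagen, was at 412, 303, 489.9, and 428 FPKM. Serpinh1, which encodes the collagen chaperone HSP47, was at 444, 354, 508, and 374 FPKM. Ppib and P4hb, which encode an isomerase and a subunit of prolyl hydroxylase, had medians of 395 and 284 FPKM. Lox, the leading crosslinking oxidase, was at 83.6, 117, 85.3, and 58.9 FPKM, highest in NC replicate 2. Single members were steady between rats: the CV was 4.03% for Fkbp10, 4.98% for Plod1, and 5.39% for Bmp1, which encodes the trimming protease itself. The list as a whole was not steadier than other genes. Over its members with a mean of at least 5 FPKM, the median SD of log2(FPKM + 1) was 0.179, against 0.156 over all such genes.

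**Figure D2:**
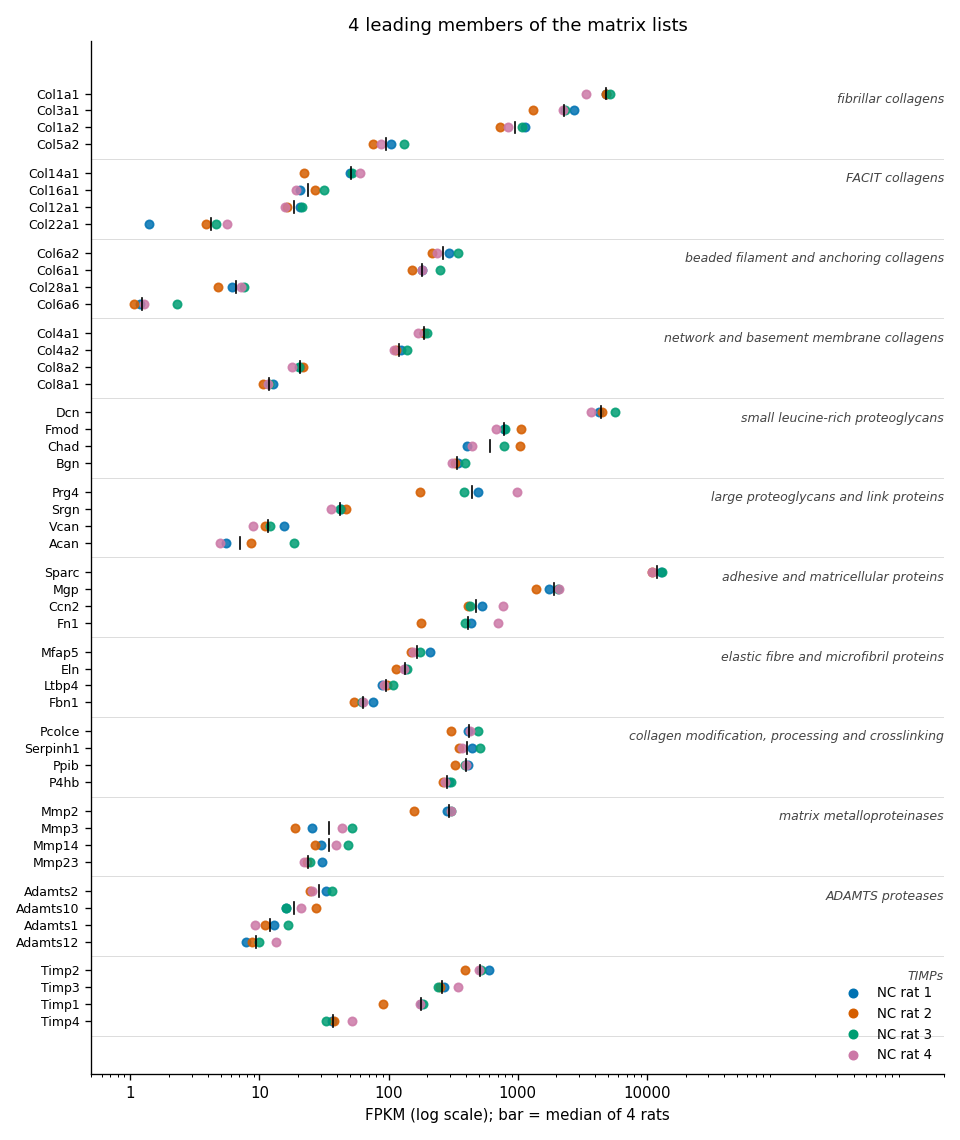
FPKM (horizontal axis, log scale) of the 4 leading members of 12 matrix lists in each NC rat (points) with the median (black bar). Sparc, Col1a1, and Dcn lie above 1000 FPKM in every rat, whereas the ADAMTS proteases lie under 100 FPKM, and NC replicate 2 is lowest in Col3a1, Col14a1, Prg4, Fn1, Mmp2, and Timp1.

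On the degrading side, 11 of 21 matrix metalloproteinase (MMP) entries reached a median of 1 FPKM. Mmp2, a gelatinase, held most of their sum at 285, 158, 307, and 306 FPKM. Mmp3 (stromelysin 1) was at 25.7, 18.8, 52.5, and 43.8 FPKM, and Mmp14, the membrane protease that activates MMP2, at 29.7, 27.1, 48.8, and 39.5 FPKM. Mmp15 and Mmp19 varied little, with CVs of 1.54% and 9.51%.

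The collagenase gene Mmp13 had no read in NC replicates 1, 2, and 4, which allows up to 0.141 FPKM (3 reads in the shallowest library), and was at 42.5 FPKM in NC replicate 3. Mmp9 was at 0, 0.349, 34.8, and 0.135 FPKM, and the entry named Mmp1 did not pass 0.120 FPKM. Apart from NC replicate 3, Mmp9 was thus at 0.349 FPKM or less. Mmp7, Mmp20, and Mmp28 were listed at 0 in every rat. These floors cover counting error only.

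The inhibitors of these proteases, the TIMPs, were more abundant than the proteases in each rat. Timp2 was at 599, 388, 522, and 500.1 FPKM, Timp3 at 267, 251, 242, and 347, Timp1 at 179, 90.7, 186, and 175, and Timp4 at 36.6, 37.5, 32.6, and 51.8. The summed TIMPs exceeded the summed MMPs by ratios of 2.67, 2.93, 1.74, and 2.38, lowest in NC replicate 3. Timp2, Timp3, and Timp4 did not overlap with each other, and Timp1 lay below Timp3 in every rat.

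The ADAMTS proteases, which trim procollagen and cut proteoglycans, were low, with 12 of 19 entries at 1 FPKM or more. Adamts2, the procollagen N-proteinase, led at 32.6, 24.5, 36.2, and 25.5 FPKM. The aggrecan-cutting Adamts1 was at 12.99, 11.0, 16.6, and 9.17 FPKM, and Adamts5 at 10.02, 12.4, 6.36, and 5.81 FPKM. Adamts4, with the same substrate, had a median of 1.57 FPKM.

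Of 33 ligand genes of the TGF-beta family, 16 reached 1 FPKM. Tgfb3 stood first at 68.5, 68.4, 59.3, and 60.3 FPKM, Tgfb1 next at 32.2, 29.4, 35.5, and 26.4, and then Tgfb2 at 15.1, 13.2, 19.7, and 16.6, and the 3 genes did not overlap. Bmp4 led the bone morphogenetic proteins with a median of 12.5 FPKM. Gdf5, a ligand of joint and tendon development, was at 1.94, 2.46, 2.83, and 0.627 FPKM, and Gdf1, Gdf2, Gdf9, and Lefty2 were listed at 0 in every rat.

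Among the other ligand families, binding proteins of insulin-like growth factor were by far the highest. Igfbp7 was at 1238, 1347, 1299.5, and 1208 FPKM with a CV of 4.90%, and Igfbp6, Igfbp5, and Igfbp4 had medians of 727, 454, and 409 FPKM. The growth factor itself, Igf1, was at 102, 73.1, 85.4, and 60.5 FPKM, above Igf2 in every rat. Fibroblast growth factors were led by Fgf7 at 24.8, 23.6, 27.3, and 15.0 FPKM, with 8 of 22 members at 1 FPKM or more. Wnt ligands were lower still, with 4 of 19 at this level and Wnt5b first at 6.93, 11.3, 8.70, and 6.06 FPKM. Pdgfb was at 26.1, 24.9, 22.5, and 25.1 FPKM, and Vegfa at 22.4, 41.9, 20.1, and 22.6 FPKM was highest in NC replicate 2.

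Receptors that bind matrix and channels that respond to load were nearly all present. The integrin subunit genes reached 1 FPKM in 24 of 25 entries, and Itgb1, the beta chain shared by the collagen receptors, led at 172, 153, 191, and 192 FPKM. Its collagen-binding partners Itga1, Itga11, Itga10, and Itga2 had medians of 9.45, 5.28, 4.26, and 2.01 FPKM. Mechanosensitive channels were led by Pkd2 at 26.5, 26.0, 27.5, and 26.7 and Pkd1 at 18.9, 25.1, 23.4, and 22.7 FPKM, followed by Piezo1 at 16.7, 17.3, 16.6, and 15.4 FPKM. The CV of Pkd2 was 2.31% and that of Piezo1 4.86%. Trpv4, another stretch-sensitive channel, was at 2.52, 2.44, 3.91, and 2.40 FPKM, highest in NC replicate 3.

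Of the genes that mark limb identity, those of the hindlimb were present. Pitx1 was at 5.30, 4.94, 6.08, and 5.31 FPKM and Tbx4 at 4.43, 4.84, 5.27, and 3.91 FPKM, both transcription factor genes that specify the hindlimb, whereas Tbx5, their forelimb counterpart, did not pass 0.121 FPKM. Of the Hox genes, which record position along the body and limb, Hoxd9 was at 13.7, 14.4, 12.6, and 9.42, Hoxd8 at 10.3, 12.4, 10.3, and 12.8, Hoxb7 at 14.3, 10.5, 8.97, and 10.4, and Hoxc10 at 9.11, 11.5, 10.7, and 8.84 FPKM. By contrast, 0 of 16 entries of the Hoxa cluster reached a median of 1 FPKM, and the highest single value among them was 0.526 FPKM. Several Hoxa genes are split over more than 1 entry in the annotation.

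The genes that the study followed after running were spread over low and moderate levels at rest. Of these 26, 16 had a median of at least 1 FPKM, and Timp1 alone had one above 100 FPKM. Among all 22237 nuclear protein-coding entries, 12333 reached 1 FPKM and 733 reached 100 FPKM. By these shares, the list was not lower than genes in general. Fmo1, a flavin monooxygenase, was at 30.3, 24.2, 25.4, and 29.8 FPKM, and its relative Fmo2 at 17.0, 9.42, 11.9, and 19.99 FPKM. Ccl2, a chemokine that draws monocytes, was at 21.7, 19.2, 29.9, and 16.7 FPKM. Some other genes of the list were lower. Il1b, the cytokine interleukin 1 beta, was at 1.95, 1.14, 2.69, and 1.40 FPKM. Ptgs2, the inducible cyclooxygenase, was at 0.220, 0.503, 1.08, and 0.562 FPKM, and the cytokine gene Il6 did not pass 0.360 FPKM. In this list, 18 of the 26 genes were highest in NC replicate 3, among them Bglap, Mmp13, Mmp9, Sost, Grem1, and Acan. This was not particular to the list, and the share over all genes is not given here. The same rat was highest in 17 of 27 entries of collagen modification and in 11 of 17 elastic fibre entries. It was highest in only 3 of 94 ribosomal protein entries with reads. The list was chosen by the study on samples that include these rats.

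The labelled tissue was checked against its markers. All 10 tenocyte markers reached 1 FPKM in every rat, and 8 passed a median of 100 FPKM. Reaching 1 FPKM does not single out tendon, since all 10 adipocyte, 10 pericyte and smooth muscle, and 10 macrophage markers did so as well. The tenocyte list includes Col1a1, Col1a2, and Dcn, and Col1a1 alone made a mean of 37.9% of its sum. Tnmd, which encodes tenomodulin, a membrane protein of mature tenocytes, was at 293, 167, 289.8, and 221 FPKM. Scx, the transcription factor gene that marks the tendon lineage, was at 32.5, 33.2, 38.5, and 17.9 FPKM, and Mkx, another such gene, at 4.996, 5.15, 8.14, and 4.21 FPKM. NC replicate 4 was lowest in 7 of the 10 tenocyte markers.

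Of the 16 cell type lists, the endothelial one had the least spread between rats, with a CV of its sum of 6.39%. The 9 endothelial markers analysed summed to 648, 647, 582, and 679 FPKM in NC replicates 1 to 4, with Emcn first at a median of 200.3 FPKM. Pericyte and smooth muscle markers, led by Tagln and Acta2, summed to 1194, 1309, 1211, and 1498 FPKM. Markers of lymphocytes other than Cd4, of keratinocytes other than Krt10, and of dividing cells did not pass a median of 2.16 FPKM, and Mki67 was at 0.446, 0.470, 0.647, and 0.729 FPKM.

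Fat genes were high in every rat. Fabp4, the fatty acid carrier of adipocytes, was at 4314, 4829.6, 2945, and 2876 FPKM and ranked 7 among nuclear protein-coding genes, above all fibrillar collagens other than Col1a1. Adipoq, the gene of adiponectin, was at 812, 1068, 731, and 572 FPKM. The 10 adipocyte markers summed to 7599, 8149, 5776, and 4905 FPKM, and 9 of them were lowest in NC replicate 4.

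Skeletal muscle RNA was present in each rat and varied widely. Mylpf, the fast myosin light chain, was at 888, 1779, 2112, and 213 FPKM, and Acta1, skeletal actin, at 555, 1715, 1957, and 627 FPKM. The fast troponin Tnnt3 was at 304, 641, 933, and 46.0 FPKM and Actn3, the actinin of fast fibres, at 34.8, 63.7, 144, and 0.589 FPKM. All 10 fast muscle markers analysed were highest in NC replicate 3, and 9 were lowest in NC replicate 4.

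Slow muscle genes followed another order. All 7 slow markers were highest in NC replicate 2 and lowest in NC replicate 1, as for Tnnt1 at 212, 573, 235, and 462 FPKM and for the slow myosin heavy chain Myh7 at 40.1, 127, 83.5, and 126 FPKM. The ratio of the summed fast to the summed slow list was 4.09, 3.25, 9.28, and 0.666 in NC replicates 1 to 4. NC replicate 4 was thus the single rat in which the slow list summed above the fast list. The ratio depends on the make-up of the lists, 10 fast and 7 slow entries, with Myh2, Myh4, and Atp2a1 missing from the fast one.

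Bone markers were high in 1 rat. Bglap, which encodes osteocalcin, was at 0.658, 1.00, 613, and 0.696 FPKM, and Ibsp, bone sialoprotein, at 2.07, 3.29, 101, and 1.01 FPKM. Dmp1, a gene of osteocytes, was at 2.70, 4.49, 112, and 4.45 FPKM, and Sost, the osteocyte gene of sclerostin, had 54 reads in NC replicate 3 and none in the others. All 8 osteoblast and osteocyte markers were highest in NC replicate 3, where they summed to 879 FPKM, against 12.1 FPKM at most in the other rats.

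Genes of bone resorption and of cartilage moved with them in NC replicate 3. Ctsk, the collagen-cutting protease of osteoclasts, which fibroblasts also make, was at 192, 111, 446, and 150.3 FPKM, and Acp5 at 28.3, 21.9, 106, and 19.9 FPKM. Dcstamp, a defining osteoclast gene, was listed at 0 in all rats. Of the 14 cartilage markers, 8 were highest in NC replicate 3, and Col10a1, the collagen of growth cartilage, was at 0.0392, 0, 26.1, and 0.207 FPKM. Ucma, a secreted protein gene of cartilage, had another pattern, at 395, 692, 557, and 476 FPKM, well above all other cartilage markers in every rat. Sox9, the regulator of cartilage genes, had a median of 1.78 FPKM. The part of bone tissue in the values of Mmp13, Mmp9, Ctsk, Acan, and Trpv4 in this rat was not tested.

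Blood and immune genes divided the rats in other ways. Hbb, the beta chain of haemoglobin, was at 1610.2, 359, 372, and 1558 FPKM, high in NC replicates 1 and 4 and low in NC replicates 2 and 3, and the 2 Hba-a2 entries and Alas2, the haem synthesis enzyme of red cells, divided the rats in the same way. The alpha chain genes are near-identical copies, so the split of reads between the 2 entries is uncertain. Lyz2, the macrophage lysozyme, was at 2251, 452, 1108, and 2579 FPKM, and C1qa, a complement gene of tissue macrophages, at 253, 72.5, 181, and 205 FPKM. All 10 macrophage markers, Cd4, and all 5 lymphatic markers, such as Lyve1 at 78.0, 22.2, 43.0, and 76.6 FPKM, were lowest in NC replicate 2. This rat was also lowest in Timp1, Mmp2, Fn1, Postn, and Prg4, and the part of the immune and lymphatic markers in those values was not tested.

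**Figure D3:**
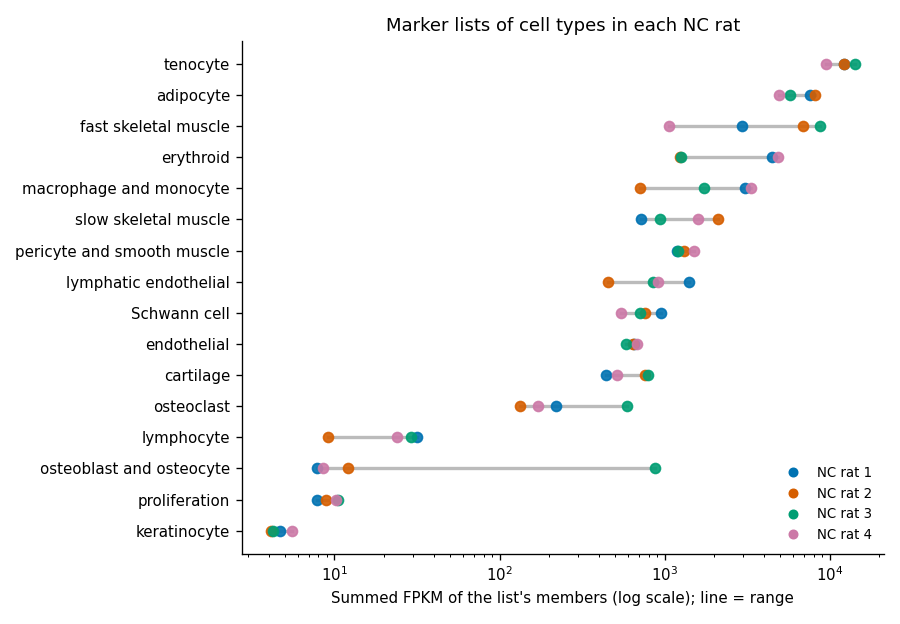
Summed FPKM of the members of each cell type list (horizontal axis, log scale) in each NC rat (points), with a line over the range, ordered by the median. Endothelial sums span 582 to 679 FPKM, whereas osteoblast and osteocyte sums span 7.87 to 879 FPKM.

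**Figure D4:**
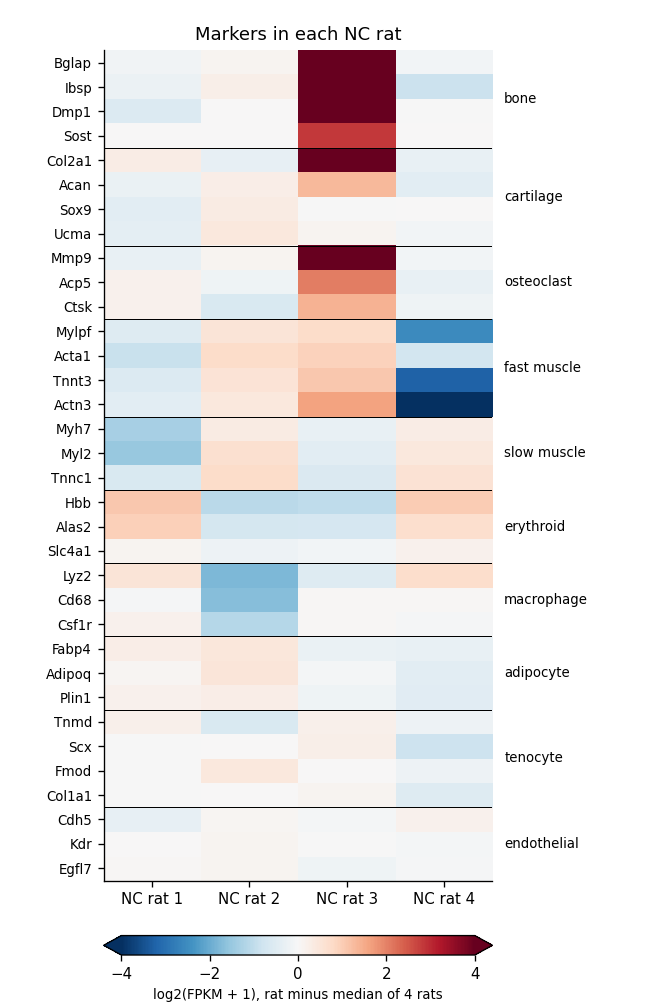
Difference of each NC rat from the median of the 4 rats in log2(FPKM + 1) for markers of 10 tissues (red higher, blue lower, colours saturated at 4 on either side). Bone markers are high in NC replicate 3, fast muscle markers low in NC replicate 4, macrophage markers low in NC replicate 2, and erythroid markers high in NC replicates 1 and 4, while endothelial markers stay close to the median.

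Most genes differed little between the rats. Over the 9151 genes with a mean of at least 5 FPKM, the median SD of log2(FPKM + 1) was 0.16, and the median CV was 11.6%, against 4.98% that the number of reads alone would give. The highest rat was at least 2 times the lowest in 816 genes (8.92%) and at least 10 times in 72 genes (0.787%). Without NC replicate 2, 449 genes differed by at least 2 times among the remaining 3 rats. Leaving out any rat lowers this count, and it was 666, 676, and 637 without NC replicates 1, 3, and 4. The common biological coefficient of variation of the counts by edgeR was 0.205 over 13323 genes, and 0.198 to 0.210 with 1 rat left out.

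Bone and fast muscle genes were among those that varied most. Bglap, Actn3, Col2a1, Mybpc2, and Mmp13 were among the 10 with the highest SD, and the others were RGD1562420, LOC103690108, a miRNA entry, and the entries RF00002 and RF00405 of ribosomal and small nucleolar RNA. RGD1562420 was at 1.97, 0.858, 222, and 261 FPKM and so divided the rats into pairs. LOC103690108 was at 0, 52.1, 40.5, and 40.5 FPKM, listed at 0 in NC replicate 1 alone. Of the 72 genes with a ratio of at least 10, 7 were fast muscle markers, 5 osteoblast and osteocyte markers, 2 cartilage markers, and 1 an osteoclast marker, 13 were not protein-coding, and the others belonged to no list of cell types. By rat, 27 of the 72 were highest in NC replicate 3, 20 in NC replicate 2, 15 in NC replicate 1, and 10 in NC replicate 4.

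The tenocyte markers, fibrillar collagens, and small proteoglycans had a higher median spread than all genes together, as did most other lists. Against the median SD of 0.16 over all genes with a mean of at least 5 FPKM, whose 90th percentile was 0.39, the lists compare as follows. Over members with a mean of at least 5 FPKM, the tenocyte markers had a median SD of 0.33 on the log2 scale, the fibrillar collagens 0.34, and the small proteoglycans 0.33, against 0.14 for endothelial markers, 0.09 for mechanosensitive channels, and 2.14 for fast muscle markers. The steadiest genes of at least 50 FPKM were Tcp1, a subunit of a chaperone of the cytosol, at 53.9, 54.2, 54.7, and 54.2 FPKM, and Map1lc3b, an autophagy gene, at 58.9, 58.4, 59.9, and 59.0 FPKM, followed by Sf3b5, Atp5mc2, RGD1311703, Impdh2, Tsg101, Tm9sf2, Nckap1, and Dnajc8.

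**Figure D5:**
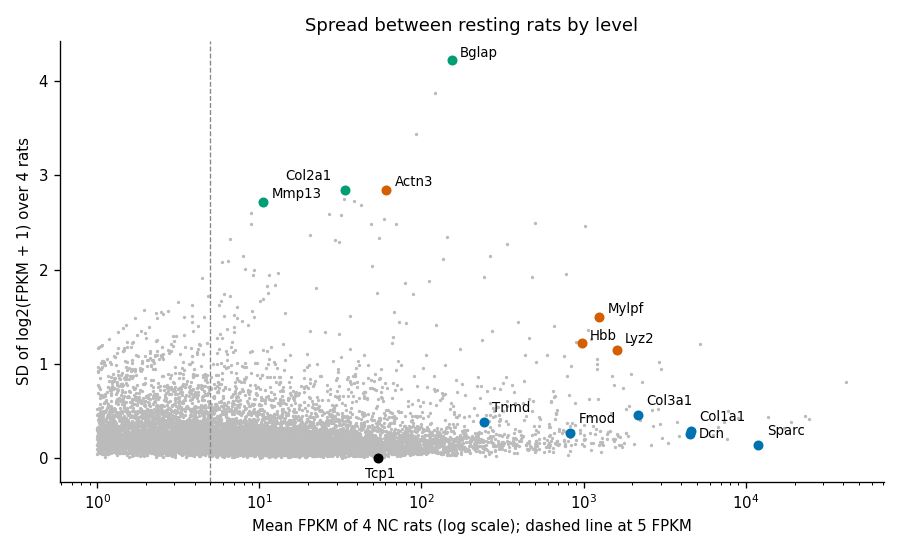
SD of log2(FPKM + 1) over the 4 NC rats (vertical axis) against the mean FPKM (horizontal axis, log scale) for genes with a mean of at least 1 FPKM (grey points). Coloured points are picked genes and do not stand for whole classes. Those in green (Bglap, Col2a1, and Mmp13) and in orange (Actn3, Mylpf, Hbb, and Lyz2) lie above the tendon genes in blue. Bglap is the highest named point, and Tcp1 (black) lies near 0.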

How the data were processed

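Right Achilles tendons of the 4 NC rats were analysed, 1 library each, grouped by the labels. Per the study's methods and processing notes, the authors used the Rnor_6.0 genome, HISAT2 2.1.0 as aligner, featureCounts 1.6.3 for the number of reads on each gene, and DESeq2 1.30.1 for comparisons. How strand and reads with several matches were handled in counting is not given in the sources used here. The deposited count table holds raw counts, and the deposited FPKM table relates each count to the length of its gene, with a single factor in each rat that is not equal to its total count, as was checked against the counts. Gene names and biotypes came from the authors' table. A further table holds the authors' log2 fold change, p-value, and adjusted p between running and resting rats, which were not used, and a repeat of the FPKM. No other column of sample values was left unused, apart from those of the running rats.

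Levels, ranks, shares, and spread were computed with Python 3.11.15, numpy 2.4.6, and pandas 2.3.3, and biological coefficients of variation with R 4.3.3 and edgeR 4.0.16, tested on simulated data. DESeq2 1.42.0 gave size factors for an alternative scaling. SDs are over 4 rats, spread uses a pseudocount of 1 FPKM and genes with a mean of at least 5 FPKM, and floors are 3 reads and cover counting error only. The libraries held 8385779 to 12951397 counts. Nothing in the labels pairs the rats or tells separate batches. No test between groups was made, since a single group holds no contrast.

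The samples and the 41 gene lists were chosen with earlier results of these data known. Genes to name were drawn by rule from the 30 with the highest median FPKM, the 4 leading members of each list, all TIMPs, all genes the study follows, members under 0.1 FPKM in all rats, the 10 highest SDs of log2(FPKM + 1) at a mean of at least 5 FPKM, the 10 lowest at a mean of at least 50 FPKM, and 5 leading noncoding genes. Other list members, and the entries with clone names, were named after their values were seen. The text describes a part of the genes under the rule, and 1 of them is not reported here. Genes not found under their symbol, among them Col6a3, Tnxb, Hspg2, Crtap, Pecam1, Myh2, and Myh4, were not analysed here. Promoters (250 bases before to 50 after the start) came from RefSeq, GRCr8. Alternatives were leaving out each rat, TMM or DESeq2 scaling, CPM or shares of counts, the mean in place of the median, other denominators, thresholds, filters, and a pseudocount of 0.1 FPKM.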

Additional observations from a re-analysis of the deposited data

Results flagged for a closer look

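Among 41 summed lists and 59 single genes, 100 groups of 4 values in all, the highest or lowest rat lay far from the other 3 in 9 groups by Dixon's criterion. Chance gives about 1 in 20, or 5 of 100. Of the 9, 6 were in NC replicate 3, 2 in NC replicate 2, and 1 in NC replicate 4, and several share members or reads, so they are not independent.

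In NC replicate 3 the summed osteoblast and osteocyte list was 879 FPKM, and the next rat was at 12.1 FPKM. Bglap, the osteocalcin gene of that list, was 613 FPKM against 1.00 FPKM in the next rat. Sost, the sclerostin gene of osteocytes, was 6.07 FPKM and listed at 0 in the other rats. Mmp13, the collagenase gene, was 42.5 FPKM and also listed at 0 elsewhere. Mmp9, a gelatinase that osteoclasts make in abundance, was 34.8 FPKM against 0.349 FPKM in the next rat. Trpv4, a cation channel, was 3.91 FPKM against 2.52 FPKM in the next rat.

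In NC replicate 2 the clone entry AABR07015081.1 was 13382 FPKM, and the next rat was at 2723 FPKM. Timp1 was 90.7 FPKM in this rat against 175 FPKM in the next lowest. In NC replicate 4 the carbonic anhydrase gene Car3 was 1415 FPKM, and the other rats lay between 2407 and 2614 FPKM.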

How the results depend on the processing

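Of 173 alternative values of 29 results, 155 moved by less than the spread between rats (for counts, by less than 1.5 times) and 18 moved by more. Of the 173, 116 came from leaving out 1 rat, and 2 of these moved. Most of the 116 are means or medians over the rats. Leaving out 1 rat cannot move such a value by more than the spread between rats. For these values the comparison could not show a dependence on 1 rat, and the 155 is no measure of robustness. TMM scaling moved none of the 29, but it cannot move a share or an order within a rat, and its factors were close to those in the deposited FPKM. Where 1 rat sets the spread, that limit is wide: without NC replicate 3, the mean sum of the osteoblast and osteocyte markers was 9.49 FPKM in place of 227 FPKM, and that of the osteoclast markers 175 FPKM in place of 279 FPKM. By library-scaled counts (CPM), not per length, Sparc ranked 2 and Col1a1 ranked 1. Over nuclear protein-coding genes alone, the matrix lists held 7.91%, all collagens 1.82%, small leucine-rich proteoglycans 1.45%, and ribosomal proteins 13.4%, against 5.59%, 1.29%, 1.02%, and 9.34% of all FPKM. As shares of reads these were 11.8%, 4.81%, 1.598%, and 4.83%, and the mitochondrial genes held 11.0% in place of 16.8%, because reads are not divided by gene length. The median SD of log2 FPKM was 0.16 and ran from 0.142 to 0.152 with 1 rat left out, lowest without NC replicate 2. It was 0.167 with a pseudocount of 0.1 FPKM, 0.173 over genes of at least 1 FPKM, and 0.164 over genes with at least 1 read. The 816 genes whose rats differed by at least 2 times became 449 to 676 with 1 rat left out, 2233 over genes of at least 1 FPKM, and 8216 over genes with at least 1 read.

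No paired analysis was possible because the results come from no test between groups and from a single group. Depth, at 8385779 to 12951397 reads, limits the low genes: a gene at 0 can still be at the level of 3 reads, which is 0.0923 FPKM for Mmp13 in the deepest library and 0.141 FPKM in the shallowest. In genes under 5 FPKM, counting error and differences between rats were not separated.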
